A study of Mus musculus with 8 samples.

Results

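The late response of a mouse pre-iPSC clone to vitamin C was measured on 4 of the 8 arrays of a time course. These were the 2 arrays of cells kept with vitamin C until day 5 or day 6 and the 2 arrays of untreated cells of the same days. They were chosen by treatment and day alone, compared within each day, and read over all 19938 genes that the array annotation names, with 1 probe set per gene (the one with the highest mean over the 8 arrays). Pre-iPSCs are cells in which reprogramming to induced pluripotency has begun but not been completed. The clone, MaF pre-iPSC9P2 in the labels, was grown on feeder cells in medium for mouse embryonic stem cells. On day 2, 1 group was switched to 50 µg/ml vitamin C and the other stayed without it. Each treatment and day gave 1 array. It is 1 clone, separate cultures for each day are not stated, and feeder cells were removed before the RNA was taken.

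All values are log2 expression values, so a difference of 1 is a 2-fold change. The level of 1 probe set cannot be set against that of another, and the precision is limited by how few arrays there are. The pluripotency factor Pou5f1 read alike on all 4 arrays, 12.09 on both untreated arrays and 12.10 and 11.93 with vitamin C on days 5 and 6. For Nanog, another pluripotency factor, and Esrrb, a factor of the naive pluripotent state, both untreated arrays lay below both vitamin C arrays. The 20 feeder or fibroblast markers read 2.27 or more on these arrays, where no probe set in the data reads 0. Their summed level on the linear scale was 5130 and 4270 without vitamin C, and 4160 and 3850 with it.

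Vitamin C is a cofactor of dioxygenases that use iron and 2-oxoglutarate. These include the Tet enzymes that oxidise methylated DNA, the Jumonji histone demethylases and the hydroxylases that mature collagen. Fibroblasts that are reprogrammed lose mesenchymal genes and gain epithelial ones early, and switch on the network of Nanog, Esrrb and their partners late. Pre-iPSCs have been known to halt between these steps.

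By days 5 and 6, cells with vitamin C had much higher RNA levels of germline and pluripotency genes such as Dppa2, Dppa5a, Morc1, Nanog and Sox2. They were also higher for epithelial and skin barrier genes such as Krt18, Grhl2 and Asprv1, and lower for mesenchymal genes such as Axl, Lox and Cdh2. Of the 19938 genes, 451 (2.26%) passed a moderated test in limma at an adjusted p of 0.05 (Benjamini-Hochberg). Vitamin C arrays were higher for 352 of them (1.77% of all genes) and lower for 99 (0.497%). The rises were larger than the falls. Their median was 1.03, and 190 rises and 27 falls were at least 2-fold, against a median of -0.86 for the falls and of -0.03 for all genes. The largest rise was 3.88 and the largest fall was -1.84.

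All 451 differed in 1 direction on both days, which a test for a small spread favours. Of the 352 rises, 225 were larger on day 6 than on day 5, against 48.3% of all genes, and 68 of the 99 falls were further down on day 6, against 51.6%. In 344 of the 352 rises both vitamin C arrays lay above both untreated arrays, an order seen in 18.4% of all genes. In all 99 falls both lay below, as in 25.5% of all genes. Choosing genes by the test on these same arrays favours both orders, so they add no support. The number of calls rests on both days. Without the arrays of day 6, 89 genes passed (83 higher, 6 lower), and without those of day 5, 235 passed (200 higher, 35 lower). With day left out of the model 216 passed (179 higher, 37 lower).

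**Figure D1:**
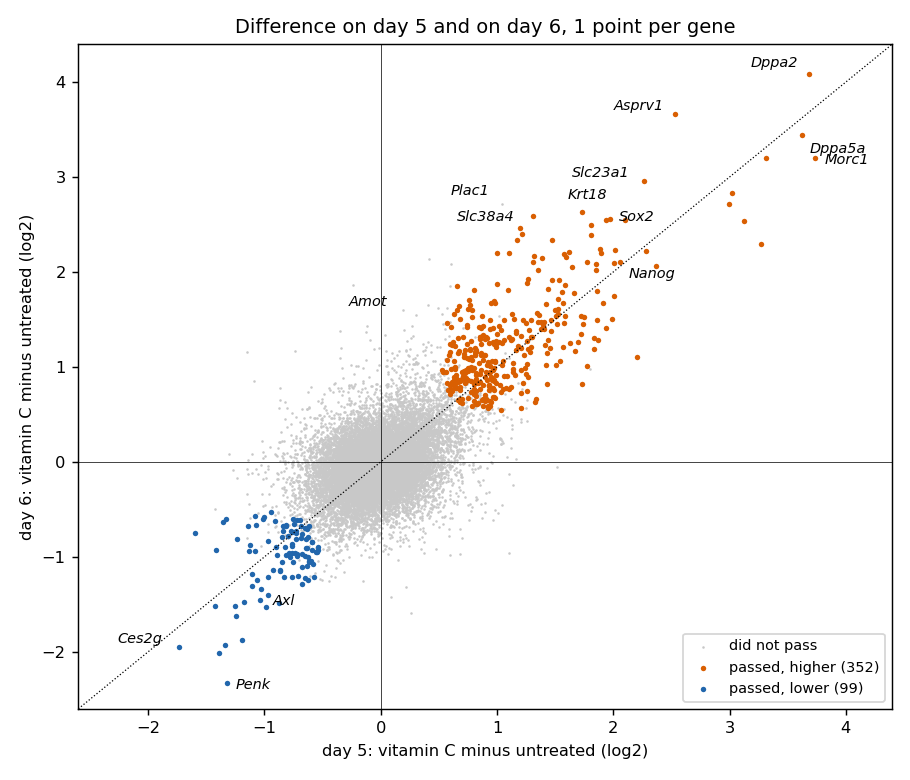
Each point is 1 of 19938 genes. The x axis is the log2 difference of vitamin C minus untreated on day 5 and the y axis the same on day 6; orange points are the 352 genes higher and blue points the 99 genes lower in the late test, and the dotted line marks equal differences. Dppa2 reaches 3.68 and 4.08, and the falls stay smaller, with Penk at -1.33 and -2.33.

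The genes of the pluripotent state are described first, with the naive markers in the lead. Dppa5a, which encodes an RNA-binding protein of pluripotent cells, stood at 7.32 and 7.59 without vitamin C and at 10.95 and 11.03 with it on days 5 and 6. The difference was 3.53 ± 0.26 (moderated SE, adjusted p = 0.00226), an 11.6-fold higher level. The vitamin C arrays were far above the untreated ones, and neither treatment moved much between the days. Nanog went from 6.40 and 6.77 to 8.46 and 8.87, a difference of 2.08 ± 0.13 (adjusted p = 0.00161). Esrrb read 3.24 and 3.36 without and 4.62 and 5.50 with vitamin C (1.77 ± 0.20, adjusted p = 0.00499). Nanog climbed between the days in both treatments, and Esrrb mainly with vitamin C.

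Nanog is transcribed from a promoter with a joined octamer and Sox element, a known binding site of Pou5f1 with Sox2. The 250 bases before its start are shown from RefSeq (GRCm38.p6, chr6:122707239-122707488, plus strand). A part of Sox2 or Pou5f1 in the rise of Nanog was not tested. Capitals mark the match to that element, TTTGCATTACAATG, which begins 75 bases before the start.
Nanog: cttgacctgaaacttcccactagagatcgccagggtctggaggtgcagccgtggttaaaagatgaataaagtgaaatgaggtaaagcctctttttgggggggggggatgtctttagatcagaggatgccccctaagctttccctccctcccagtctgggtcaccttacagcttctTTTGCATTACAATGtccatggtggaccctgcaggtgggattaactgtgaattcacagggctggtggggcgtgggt
The pattern searched was the Nanog form of the element, on both strands and with any letter between octamer and Sox part. It occurs in 2 of 32851 promoter windows (0.00609%), both of Nanog. A window runs from 250 bases before to 50 after a start. Other forms of the element were not searched, so the count does not show how common it is. A match describes the sequence and says nothing of binding in these cells.

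Tfcp2l1, a transcription factor of the naive network, rose from 5.07 and 5.36 to 6.37 and 6.68 (1.31 ± 0.16, adjusted p = 0.00731). Prdm14, a factor of naive and germ cells, rose from 3.27 and 3.42 to 3.95 and 4.05 (0.65 ± 0.13, adjusted p = 0.0489). In all, 5 of 19 naive markers were higher and 0 lower, with a list median of 0.38. The others did not pass. Tbx3 differed by 0.74 (adjusted p = 0.0565), Klf5 by 0.57 and Zfp42, a common marker of embryonic stem cells, by 0.22 on day 5 and 1.17 on day 6. Dppa3 gave 0.24 on day 5 and -0.48 on day 6. Without day 6, 3 naive markers passed (Nanog, Dppa5a and Esrrb), and without day 5, 4.

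Of 21 genes of general or primed pluripotency, 3 rose and 0 fell, with a median of 0.38. Dppa2, a chromatin-bound protein of pluripotent and germ cells, had the largest rise of all named genes with the probe set used. It read 3.48 and 3.03 without vitamin C and 7.16 and 7.11 with it. The difference was 3.88 ± 0.36 (adjusted p = 0.00291), 14.7-fold. Its partner Dppa4 rose from 3.54 and 3.63 to 4.98 and 5.45 (1.63 ± 0.17, adjusted p = 0.00348). Both genes have 2 probe sets, and the 14 alternatives, some of which are the same fit, include other ways to treat them. Over these the difference ranged from 3.10 to 4.08 for Dppa2 and from 1.44 to 2.50 for Dppa4. Utf1, another chromatin protein of undifferentiated cells, rose from 6.86 and 6.88 to 8.23 and 8.27. In all 3 the treatments were apart on both days. Dnmt3b (0.80, adjusted p = 0.0552), Sall4 (0.52) and Tdgf1 (0.49) did not pass. Leaving out day 6 kept Dppa2 and Dppa4, and leaving out day 5 kept all 3.

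The 4 reprogramming factors did not move together. Sox2, which acts beside Pou5f1 in the core of the network, read 5.22 and 5.18 without vitamin C and 7.19 and 7.74 with it (2.26 ± 0.30, adjusted p = 0.0102). It was 1 of the 15 largest rises, though it did not pass without day 6 (adjusted p = 0.0555, with a range of 0.00549 to 0.0555 over 14 alternatives). Pou5f1 (-0.07), Klf4 (-0.05) and Myc (-0.01) did not pass, and each difference was smaller than its moderated SE of 0.14. Klf4 was at 8.09 and 8.29 without and 8.03 and 8.24 with vitamin C. The labels do not say how the clone was made, and an array probe set does not tell a gene's own transcript from an introduced copy.

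Signalling genes around pluripotency gave few calls. Lefty2, a secreted inhibitor of Nodal, was the only 1 of 14 Nodal and Lefty genes that passed, from 4.91 and 4.98 to 6.23 and 7.15 (1.74 ± 0.22, adjusted p = 0.00731). It did not pass without day 6 and was 1 of 2 genes of that list that did without day 5. Lefty1 differed by 0.57 on day 5 and 1.62 on day 6, and the ligand gene Nodal by 0.22 and 0.51, and neither passed. Of 13 genes of the LIF and STAT3 pathway, which sustains mouse embryonic stem cells, 0 passed (median 0.06).

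**Figure D2:**
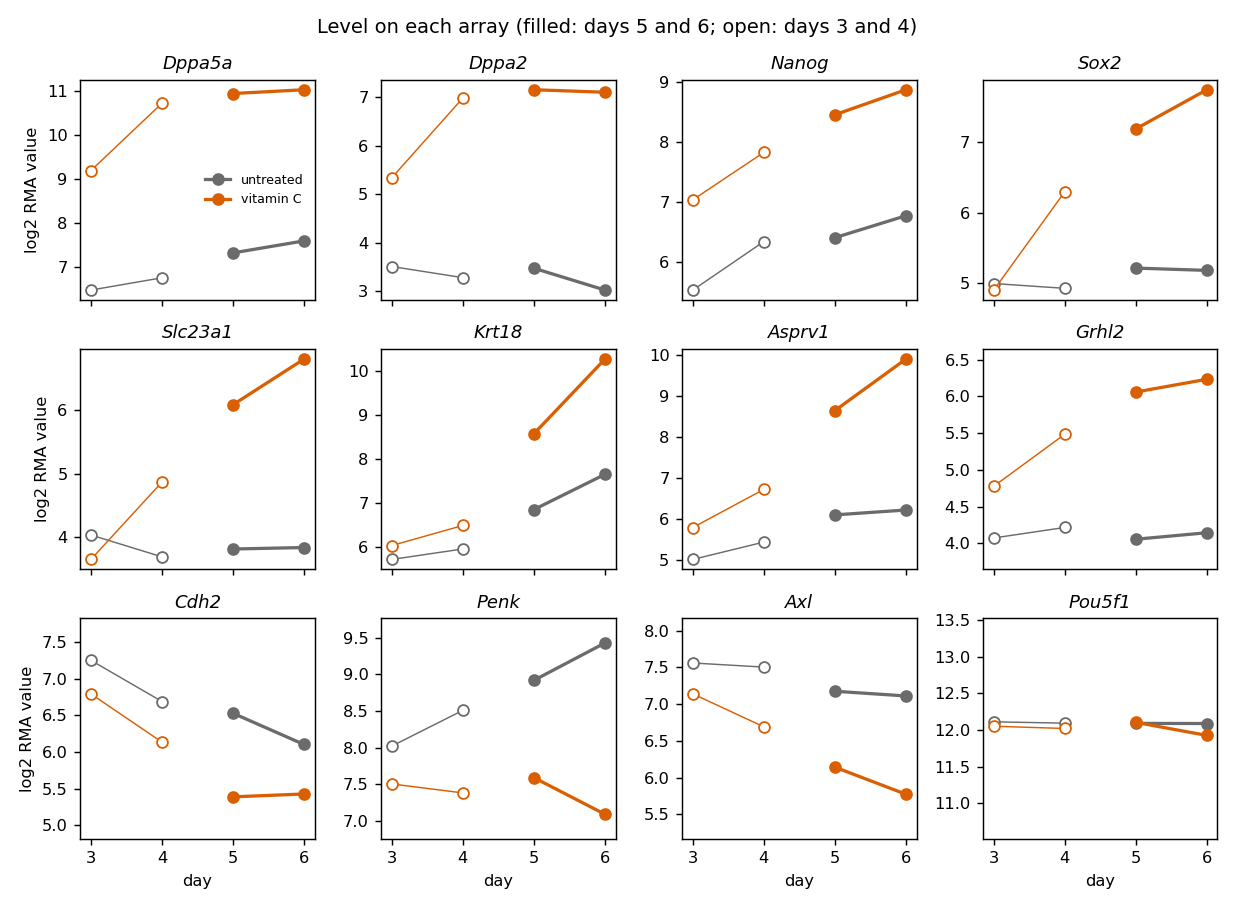
Log2 level (y axis) by day (x axis) for 12 genes, with 1 point per array, grey for untreated and orange for vitamin C; filled points are days 5 and 6 and open points days 3 and 4. Sox2 and Slc23a1 are no higher with vitamin C on day 3 and are higher by 2.55 and 2.96 on day 6, while Pou5f1 lies between 11.93 and 12.11 on all 8 arrays.

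Epithelial genes formed a large block of the response. Of 36 measured, 16 rose and 0 fell, and the list median was 0.73 (0.82 on day 5 and 0.65 on day 6) against -0.03 for all genes. Their summed linear level was 1.79 times that of untreated cells on day 5 and 1.65 times on day 6. Krt18, a keratin of simple epithelia, read 6.85 and 7.65 without vitamin C and 8.58 and 10.28 with it (2.18 ± 0.21, adjusted p = 0.00307). Its partner keratin Krt8 went from 9.23 and 9.88 to 10.34 and 11.19 (1.21 ± 0.15). Both keratins also climbed from day 5 to day 6 in untreated cells, and the untreated array of day 6 stayed below the vitamin C array of day 5.

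Regulators of epithelial identity were among the risers. Grhl2, a Grainyhead-like factor that switches on junction genes, rose from 4.05 and 4.14 to 6.06 and 6.23 (2.05 ± 0.17, adjusted p = 0.00266). Ovol1, a zinc finger factor of epithelia, rose by 1.63 ± 0.14, and Esrp2, a splicing factor of epithelia, by 0.83 ± 0.16. Ap1m2, a subunit of the adaptor that sorts proteins to the basolateral membrane, rose from 4.55 and 4.66 to 6.56 and 6.89. Rab25, a GTPase of epithelial recycling, rose from 6.53 and 6.78 to 7.99 and 7.98. For each of these 5 genes the lower vitamin C array was above the higher untreated array.

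Junction proteins made up most of the remaining risers. The claudins, strands of tight junctions, rose as Cldn4 (1.57), Cldn6 (1.42), Cldn7 (0.98) and Cldn3 (0.92). The tight junction linkers Cgn (1.22) and Tjp3 (0.84), the desmosome plaque gene Pkp2 (0.91) and the protease gene Prss8 (1.62) rose too. Cdh1, the E-cadherin of adherens junctions, rose only a little, from 8.59 and 8.86 to 9.42 and 9.48 (0.73 ± 0.15, adjusted p = 0.0467). Dsc2 (0.92) and Dsp (0.64) of desmosomes missed the threshold with adjusted p of 0.0518 and 0.0541. The count of 16 became 7 without day 6, 11 without day 5 and 27 with a trended and robust variance.

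Promoters of such genes are known for the E-box CAGGTG, to which the repressors Zeb1 and Snail bind. The 250 bases before the start of 3 genes that rose are shown with it in capitals on either strand (RefSeq, GRCm38.p6, all minus strand, Rab25 at chr3:88548280-88548529, Cldn4 at chr5:134946935-134947184 and Ap1m2 at chr9:21312334-21312583).
Rab25: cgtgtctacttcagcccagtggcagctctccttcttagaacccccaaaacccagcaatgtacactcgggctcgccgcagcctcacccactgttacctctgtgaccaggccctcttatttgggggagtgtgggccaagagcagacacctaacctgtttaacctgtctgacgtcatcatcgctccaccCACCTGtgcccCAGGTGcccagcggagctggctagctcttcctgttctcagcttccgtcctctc
Cldn4: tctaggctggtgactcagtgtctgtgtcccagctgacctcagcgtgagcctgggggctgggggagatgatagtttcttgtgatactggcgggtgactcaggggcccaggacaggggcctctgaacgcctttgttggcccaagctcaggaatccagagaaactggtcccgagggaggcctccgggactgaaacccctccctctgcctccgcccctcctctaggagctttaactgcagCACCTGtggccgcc
Ap1m2: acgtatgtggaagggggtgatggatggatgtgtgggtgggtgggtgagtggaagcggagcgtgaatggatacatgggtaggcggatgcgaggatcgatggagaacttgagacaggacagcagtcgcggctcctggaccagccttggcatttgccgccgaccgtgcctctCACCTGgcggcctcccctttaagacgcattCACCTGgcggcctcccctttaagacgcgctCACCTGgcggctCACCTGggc
Ap1m2 holds 4 copies, Rab25 holds 2 and Cldn4 holds 1 here and another after its start. The motif occurs in 20.2% of all 32851 windows. It was in 10 of 12 windows (83.3%) of epithelial genes that rose, and in 12 of 15 (80.0%) of epithelial genes that did not pass. Its share was 34.2% of the windows of all genes that rose, 11.8% for genes that fell and 17.4% for mesenchymal genes. The Grainyhead-like motif AACNGGTT was in 2.09% of all windows and in 2 of the 12, those of Cgn and Rab25. Neither motif contains the other.

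Skin barrier and cornification genes rose with them, 11 of 28 higher and 0 lower (median 0.58). Asprv1, a protease that processes filaggrin in the outer epidermis, read 6.11 and 6.22 without vitamin C and 8.64 and 9.89 with it (3.10 ± 0.25, adjusted p = 0.00266). The vitamin C array gained 1.25 from day 5 to day 6 and the untreated array 0.12. Cers3, the synthase of very long chain ceramides, rose from 4.53 and 4.41 to 6.46 and 6.96 (2.24 ± 0.20). Krt1, a keratin of differentiating epidermis, rose from 5.13 and 5.41 to 6.61 and 7.33 (1.70 ± 0.17). Here too no vitamin C array overlapped an untreated one.

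The lipoxygenases of the epidermal lipid barrier, Alox12b (1.54) and Aloxe3 (1.13), the cross-linking enzyme Tgm1 (1.54) and the proteases Klk7 (1.68) and Klk6 (1.20) rose as well. The others were Krt17 (1.36), Sprr1a (1.48) and the lipid transporter gene Abca12 (0.75). Members of keratin, kallikrein and small proline-rich families resemble each other in sequence, so a probe set may read more than 1 of them. Krt16 (0.68), Sprr1b (0.89) and Lor (-0.44), which encodes the cornified envelope protein loricrin, did not pass. Without day 6, 7 of the list passed, and without day 5, 10.

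Trophoblast genes gave 7 rises and 0 falls among 28, and their median was 0.20 on day 5 and 0.73 on day 6. Krt18 and Krt8 are also in the epithelial list. Krt7, a keratin of trophoblast and other simple epithelia, rose from 5.96 and 6.97 to 7.62 and 8.75 (1.72 ± 0.14, adjusted p = 0.00266). The transcription factor genes Elf5 (1.11), Ascl2 (1.08) and Gata2 (1.05) rose, and so did the homeobox gene Rhox9 (1.21). Plac1, a placental membrane protein, went from 2.57 and 2.42 to 3.61 and 5.14, but its 2 differences of 1.04 and 2.72 were too far apart to pass (1.88 ± 0.41, adjusted p = 0.0581). Cdx2, a master factor of trophectoderm, read 3.46 and 3.81 without and 3.47 and 3.20 with vitamin C. Without day 6, 2 of the 28 passed, and without day 5, 7.

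**Figure D3:**
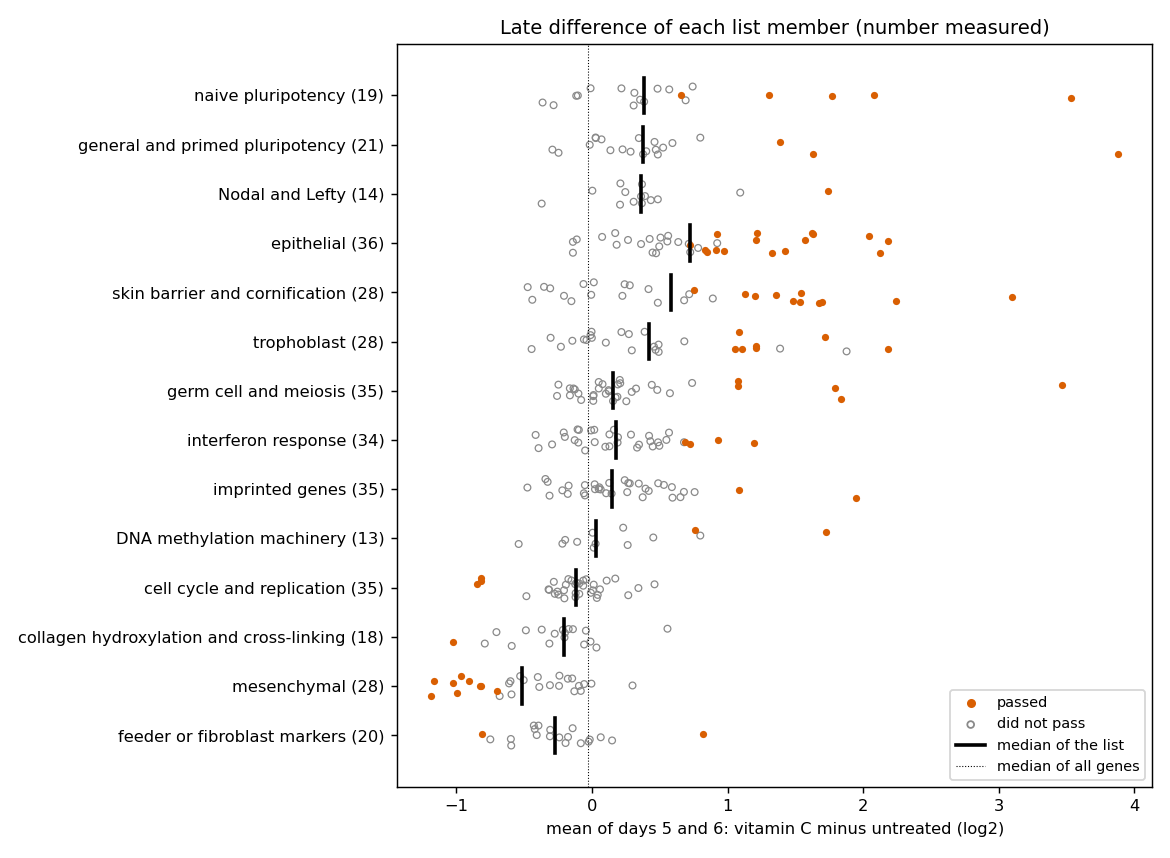
Each point is 1 gene of the list named on the y axis, with the number measured in brackets, and the x axis is its late log2 difference (vitamin C minus untreated, mean of days 5 and 6). Orange points passed the test, open points did not, thick lines are list medians and the dotted line is the median of all genes (-0.03). The epithelial median is 0.73 and the mesenchymal median -0.52.

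Mesenchymal genes went the other way. Of 28 measured, 9 fell and 0 rose, 27 differences were below 0, and the median was -0.52 (-0.59 on day 5 and -0.37 on day 6). On days 3 and 4 the list median was already -0.62, so the lower level was not particular to the late days. Lox differed by -1.29 and Acta2 by -1.24 in the mean of days 3 and 4. Axl, a receptor tyrosine kinase of mesenchymal cells, read 7.18 and 7.11 without vitamin C and 6.14 and 5.77 with it (-1.19 ± 0.16, adjusted p = 0.0102). Lox, the enzyme that cross-links collagen, fell from 7.62 and 6.75 to 6.38 and 5.94 (-1.03 ± 0.15, adjusted p = 0.0146). Untreated Lox itself dropped between the days, yet all vitamin C values of both genes were below all untreated values.

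Cdh2, the N-cadherin, fell from 6.53 and 6.10 to 5.39 and 5.43 (-0.91 ± 0.16). Zeb1, a repressor of epithelial genes, fell from 6.50 and 6.36 to 5.83 and 5.39 (-0.82 ± 0.14). The intermediate filament gene Vim (-0.70), the smooth muscle genes Acta2 (-0.996), Actg2 (-0.96) and Tagln (-0.82), and Ankrd1 (-1.17), a target of mechanical signalling, also fell. The actin genes were further down on day 5 than on day 6, with Acta2 at -1.36 and -0.63. Snai2 (-0.60) and Snai1 (-0.53) did not pass. The count of 9 became 4 without day 6, 1 without day 5 and 1 with day left out of the model.

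Feeder and fibroblast markers stood lower with vitamin C as well, and the part of fewer such cells in the falls was not tested. Fewer cells of a type and less RNA per cell cannot be told apart in RNA pooled from many cells. Feeder cells were removed before the RNA was taken, and how evenly over the arrays was not tested. Of the 20 markers, Fbln2, an extracellular matrix gene, fell from 8.70 and 8.42 to 7.94 and 7.56 (-0.81 ± 0.14, adjusted p = 0.026), Lum rose by 0.82 from low levels, and 18 did not pass. Their median was -0.42 on day 5 and -0.17 on day 6, where the mesenchymal median was -0.37. Their summed linear level with vitamin C was 0.811 of the untreated level on day 5 and 0.902 on day 6, against 0.709 and 0.775 for the mesenchymal list. Thy1 read 6.31 and 5.97 without and 6.28 and 5.97 with vitamin C, and Col1a1 differed by -0.57 and -0.25. Neither Fbln2 nor Lum passed when either day was left out.

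Genes for collagen hydroxylation and cross-linking, enzymes for some of which vitamin C is a cofactor, gave 1 fall (Lox) among 18 and a median of -0.21. P3h4 (-0.59) and P3h1 (-0.79), of the prolyl 3-hydroxylase family, had adjusted p of 0.0665 and 0.0709. Plod2, a lysyl hydroxylase, differed the other way by 0.56 (adjusted p = 0.0959).

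Germ cell genes added some of the largest rises. Morc1, which silences transposons in male germ cells, read 3.77 and 3.87 without vitamin C and 7.51 and 7.06 with it (3.47 ± 0.26, adjusted p = 0.00226), 11.1-fold. Piwil2, a Piwi protein of the piRNA pathway, rose from 4.01 and 3.97 to 5.93 and 5.64 (1.79 ± 0.19). Tdrd12, another piRNA factor, rose from 3.26 and 3.20 to 4.46 and 5.66 (1.83 ± 0.26). Untreated cells held steady for all 3, and the vitamin C arrays of Tdrd12 were 1.21 apart.

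Prdm1, a founder factor of germ cells that also acts in epithelia and immune cells, rose by 1.08 ± 0.16, and the meiotic cohesin gene Rec8 by 1.07 ± 0.17. These 5 were the calls among 35 germ cell and meiosis genes, with 0 lower and a list median of 0.15. Dazl read 2.41 and 2.64 without and 2.62 and 2.93 with vitamin C, and Sycp3 differed by 0.21. Without day 6, 2 of the list passed, and without day 5, 4.

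The DNA methylation machinery gave 2 rises among 13 genes. Dnmt3l, the cofactor that stimulates de novo methylation, read 3.02 on both untreated arrays and 4.60 and 4.88 with vitamin C (1.72 ± 0.19, adjusted p = 0.00478). The de novo methyltransferase Dnmt3a rose from 5.87 and 6.19 to 6.79 and 6.78 (0.76 ± 0.14, adjusted p = 0.0383) and did not pass when either day was left out. Dnmt3b missed the threshold with 0.80 ± 0.17 (adjusted p = 0.0552). Tet1, which oxidises methylcytosine, differed by 0.45 (adjusted p = 0.156), Tet2 by 0.26 and Tet3 by 0.23. The maintenance enzyme Dnmt1 differed by -0.20.

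Of 32 genes for histone and RNA dioxygenases, the family for which vitamin C is a cofactor, 0 passed and the median was 0.01. The members with the smallest p were Kdm5b (0.45) and Phf2 (-0.50). Among 35 imprinted genes 2 rose and 0 fell (median 0.14). Slc38a4, a placental amino acid transporter, rose from 4.68 and 4.42 to 5.99 and 7.01 (1.95 ± 0.26, adjusted p = 0.0102), and the vitamin C arrays gained 1.02 between the days while the untreated ones lost 0.26. The other was Ascl2, named above, which did not pass without day 6.

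Of 14 genes for the transport and recycling of vitamin C, 2 rose and 0 fell, with a median of 0.16. Slc23a1, the sodium-dependent transporter that takes up ascorbate in epithelia, read 3.82 and 3.84 without and 6.09 and 6.80 with vitamin C (2.61 ± 0.32, adjusted p = 0.00731), 6.12-fold. Glrx, a glutaredoxin, rose from 5.29 and 5.17 to 6.35 and 6.66 (1.27 ± 0.17, adjusted p = 0.01) and did not pass without day 6. The more widely expressed transporter Slc23a2 stayed at 7.03 and 6.84 without and 7.08 and 7.10 with vitamin C. Slc2a3 (0.54) and Gsto1 (0.61) did not pass.

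Other carriers rose with Slc23a1. Of 28 amino acid and peptide transporters 4 were higher and 1 was lower. The amino acid transporter Slc6a14 rose from 2.93 and 3.57 to 4.81 and 5.81 (2.06 ± 0.18), and the peptide transporters Slc15a2 and Slc15a1 by 1.31 and 1.09. Slc38a4 is also in this list. Slc7a6 fell by 0.78 on the log2 scale. Without day 6, 2 rises passed, and without day 5, 3, and the fall passed in neither.

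Among 29 antioxidant and glutathione genes 3 rose and 0 fell (median 0.16). Hmox1, heme oxygenase, rose from 6.78 and 7.09 to 7.91 and 8.38 (1.21 ± 0.17, adjusted p = 0.0113). Nqo1, a quinone reductase, rose by 0.84 ± 0.15. Gpx2, a glutathione peroxidase of epithelia, rose from 4.71 and 4.34 to 6.81 and 6.89 (2.32 ± 0.48), but it passed only at the threshold and was lost in 8 of 14 alternatives. Without day 6 none of the list passed, and without day 5, 1 did. Of 32 hypoxia and glycolysis genes only Ero1a, an oxidase of protein folding, rose (0.88 ± 0.14, adjusted p = 0.0183), and with either day left out it did not pass.

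The interferon response gave 4 rises among 34 genes and 0 falls, with a median of 0.18. Rsad2, an antiviral enzyme, rose from 4.61 and 4.90 to 5.79 and 6.12 (1.20 ± 0.19, adjusted p = 0.0185). Oasl2, of the oligoadenylate synthetase family, rose by 0.93, and Irf1, an interferon-responsive factor, and the nuclease gene Isg20 by 0.72 and 0.69. Without day 6 none passed, and without day 5, 1. Among 25 inflammatory and acute phase genes the chemokine gene Cxcl16 was the only call (1.42), from 4.99 and 5.40 to 6.66 and 6.57. It passed without day 6 and not without day 5.

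The cell cycle list gave 3 falls and 0 rises among 35 genes, with a median of -0.12. All 3 act at entry into the cycle. Cdk6 fell from 9.12 and 9.27 to 8.40 and 8.30 (-0.85 ± 0.15, adjusted p = 0.0279). The D cyclins Ccnd1 (-0.82) and Ccnd2 (-0.82) fell by similar amounts. None of the 3 passed with either day left out. Oxidative phosphorylation (35 genes), p53 and senescence (19), sterol and fatty acid synthesis (23), the unfolded protein and amino acid response (28), TGF-beta signalling (25), endoderm (20), blood markers (6) and two-cell-like genes (5) had 0 calls in either direction, with medians between -0.23 and 0.08. With vitamin C the summed linear level of the 6 blood markers was 0.763 of untreated on day 5 and 0.576 on day 6. Laptm5, which did not pass, made up most of that sum, at 7.87 and 7.79 without and 7.40 and 6.71 with vitamin C. Of the 6 markers, 4 stood lower and 2 higher. Both ratios were lower than for the feeder list, and the part of such cells in other falls was not tested.

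Few genes of other lineages passed. Among 17 mesoderm genes the heart factor Tbx20 rose (1.10 ± 0.15), and among 17 neurectoderm genes the adhesion molecule Ncam1 fell, from 6.54 and 6.42 to 5.65 and 5.44 (-0.93 ± 0.15). Of 6 endothelial markers Pecam1, which embryonic stem cells also express, rose from 4.00 and 4.09 to 5.20 and 4.82 (0.97 ± 0.17). Tek, a receptor of endothelial cells, stood lower by a like amount, at 5.38 and 5.35 without and 4.35 and 4.47 with vitamin C (-0.96, adjusted p = 0.0697), and did not pass. Cdh5 and Tie1 differed by 0.12 and -0.01. In all, 4 of the 6 differences were below 0, and the summed level of the 6 was 0.948 and 0.929 of the untreated level on days 5 and 6. Ncam1 and Pecam1 did not pass when either day was left out, and Tbx20 did not without day 6.

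The largest rises outside these lists were of genes with little shared function. The lectin-like genes Clec2g (2.92) and Clec2i (2.83) read 3.46 and 3.55, and 3.32 and 3.66, without vitamin C, and between 6.20 and 6.48 with it. They are close relatives, and cross-reading of their probe sets was not tested. Gpr179, an orphan receptor gene, rose from 5.16 and 5.87 to 8.15 and 8.58 (2.85 ± 0.22). Dmrtc1b, an X-linked gene of the doublesex-related family, rose by 3.27 on day 5 and 2.29 on day 6. Gpr182 (2.25), a receptor gene, and Capsl (2.22), of the calcyphosine family, complete the 15 largest rises. Of these 15, 12 passed in all 14 alternatives, 13 without day 6 and 14 without day 5, with Sox2 and Gpx2 lost without day 6 and Gpx2 without day 5.

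The 15 largest falls were smaller and less stable. Penk, which encodes the enkephalin precursor, read 8.92 and 9.43 without vitamin C and 7.59 and 7.09 with it (-1.83 ± 0.24, adjusted p = 0.0102), so the treatments drew apart from day 5 to day 6. Ces2g, a carboxylesterase gene, fell from 6.35 and 5.94 to 4.61 and 3.99 (-1.84 ± 0.29, adjusted p = 0.019). Iqgap2, a cytoskeletal scaffold gene, fell from 7.49 and 7.37 to 6.09 and 5.36. In each of the 3 all vitamin C values were below all untreated ones.

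The neuropeptide gene Tac2 (-1.43), the NAD synthesis gene Nmnat2 (-1.39), the sialyltransferase gene St8sia5 (-1.26), the neurturin receptor gene Gfra2 (-1.24) and Apcdd1 (-1.18), an inhibitor of Wnt signalling, were further falls. The others were Klrb1f (-1.63), Ly6d (-1.53), Ifitm6 (-1.47), Them5 (-1.33), Tff2 (-1.20), Hsd3b3 (-1.19) and Axl, named above. None of the 15 passed without day 6, all passed without day 5, and 13 passed with day left out of the model. The difference was larger on day 6 than on day 5 in each of the 15.

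**Figure D4:**
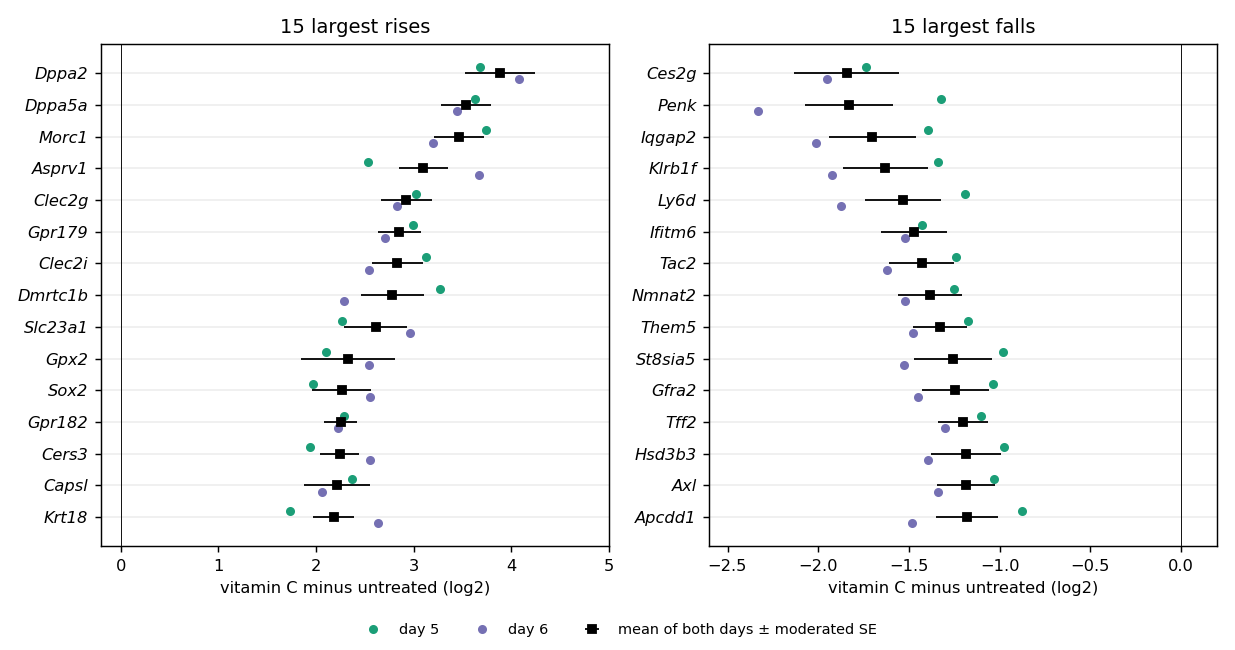
The 15 largest rises (left) and falls (right) among genes that passed, with genes on the y axis and the log2 difference, vitamin C minus untreated, on the x axis. Green points are day 5, purple points day 6, and squares with bars the mean of both days ± moderated SE; 13 genes that passed and carry only clone or predicted names, or olfactory receptor names, are left out. Every fall lies further from 0 on day 6.

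Between the days, the number of genes past 2-fold grew, while some lists moved the other way. With 1 array per treatment and day, counts of a single day have no test. On day 5, 192 genes (0.963%) were at least 2-fold higher and 53 (0.266%) at least 2-fold lower, and on day 6 the counts were 302 (1.51%) and 61 (0.306%). On both days 132 genes (0.662%) were at least 2-fold higher and 14 (0.0702%) lower. Genes past 2-fold higher on day 6 and not on day 5 numbered 170, against 60 for the reverse. The mesenchymal median came nearer to 0, from -0.59 to -0.37, and its members at least 2-fold lower went from 9 to 1. The epithelial median went from 0.82 to 0.65, though its members at least 2-fold higher went from 9 to 12. From day 5 to day 6 itself, 30 genes went up and 26 went down at least 2-fold in untreated cells, and 83 and 22 in cells with vitamin C. Of the 352 genes higher in the late test, 227 read higher on day 6 than on day 5 in both treatments, against 26.7% of all genes.

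Genes seen on day 6 alone are listed by value only, since none passed. Amot, a scaffold of Hippo signalling, differed by 0.19 on day 5 and 1.60 on day 6, with 6.24 and 6.64 on the untreated and 6.43 and 8.24 on the vitamin C arrays. Airn, the imprinted antisense transcript of Igf2r, differed by -0.12 and 1.43. Sprr2g (0.27 and 1.43), Mab21l4 (0.20 and 1.38) and Pramel20 (-0.13 and 1.36) followed. In the first 4 the vitamin C array of day 6 stood apart above the other 3. For Pramel20 the untreated array of day 6 was low as well, with 1.85 and 1.02 on the untreated and 1.72 and 2.38 on the vitamin C arrays. Serpinb1a (0.09 and -1.42), Slc25a53 (0.22 and -1.32), Hoxc10 (-0.16 and -1.26), Mpeg1 (0.15 and -1.03) and Ccdc170 (-0.27 and -1.002) had the largest differences downward on day 6 alone. For Serpinb1a and Slc25a53 the untreated array of day 6 stood apart. It read 4.90 for Serpinb1a against 3.48 to 3.57 on the other 3, and 3.67 for Slc25a53 against 2.35 to 2.72.

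On day 5 alone the largest differences upward were those of Apol7c (1.52 and -0.06 on days 5 and 6), Cntd1 (1.16 and 0.03), Elobl (1.14 and -0.25), Zyg11a (1.12 and 0.14) and Abcc3 (1.12 and 0.26). Downward they were those of Ifna14 (-1.27 and -0.08), H2bc22 (-1.24 and -0.18), Gkap1 (-1.15 and -0.07), Tll1 (-1.14 and 0.02) and Skint7 (-1.14 and -0.13). Apol7c read between 1.70 and 3.22 on the 4 arrays, low on this scale.

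The late difference was then set against that of days 3 and 4, the earlier arrays of the same course. The groups share no array. Of the 352 genes higher late, 286 were also above 0 early, against 52.9% of all genes. The late difference was larger than the early one in 344, against 45.2% of all genes, with a median of 0.31 early and 1.03 late. For 158 the early difference lay within 0.3 of 0, against 78.9% of all genes. Of the 99 genes lower late, 83 were also below 0 early, while 52.9% of all genes were above 0. For 35 of the 99 the early difference lay within 0.3 of 0. Their median was -0.38 early and -0.86 late. Early, 17 genes passed (0.0853%), and 11 of these passed late, against 2.26% of all genes. Both tests use the same estimate of each gene's spread, from all 8 arrays, so these calls are not independent. The larger late differences of these genes are in part fixed by choosing them on the late days.

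The test of late minus early itself gave 0 calls (0.0%) in limma, while 2560 genes (12.8%) had an unadjusted p under 0.05, 1284 upward and 1276 downward. Other settings gave up to 183 calls, with a trended and robust variance, and 31 without day 5. So a late onset of a single gene was not shown at this threshold. Slc23a1 differed by 0.40 early and 2.61 late (late minus early 2.22 ± 0.46, adjusted p = 0.179), with -0.38 on day 3 and 1.17 on day 4. Sox2 differed by 0.64 early, from -0.09 on day 3 to 1.37 on day 4. Dppa5a differed by 3.35 early and 3.53 late, so most of its difference was present by then.

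The genes with the smallest p upward were Ifit1, Cldn1, Farp1, Adgrl2 and Krt1. Cldn1, a claudin of tight junctions, read 3.17 and 4.36 without vitamin C and 4.71 and 6.27 with it, a late difference of 1.72 against -0.22 early (adjusted p of the change = 0.113). Krt1 differed by -0.04 early and 1.70 late. Downward they were Inmt, Tff2, Vmn1r6, Pcdhb14 and Ctnnd2. Tff2, a trefoil peptide gene, differed by 0.14 early and -1.20 late (adjusted p of the change = 0.113), and Pcdhb14 by 0.74 early and -0.43 late.

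**Figure D5:**
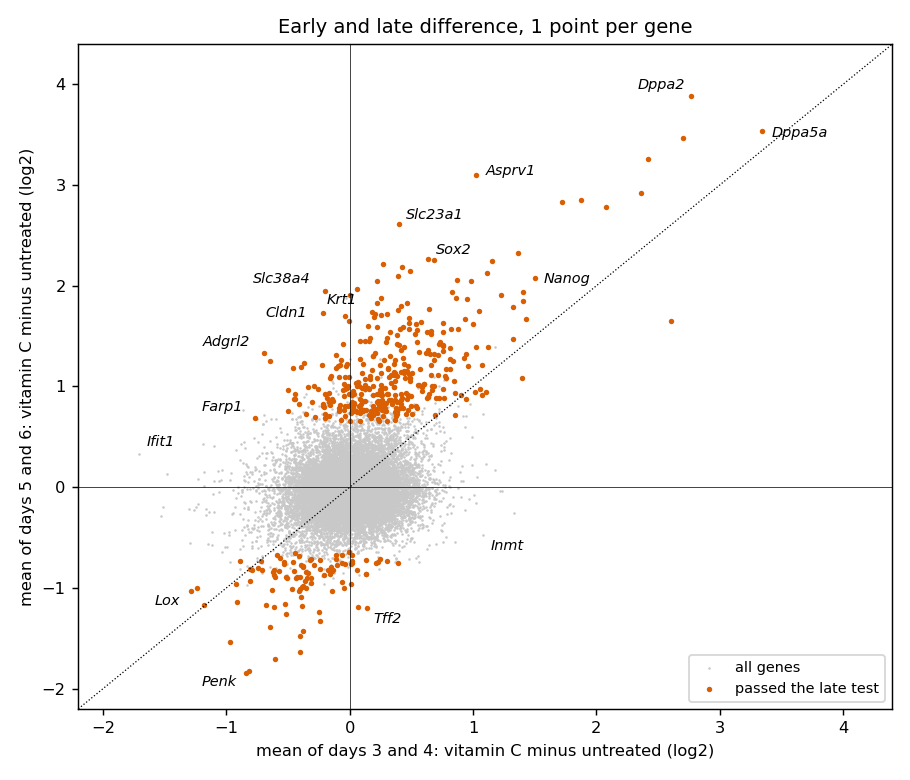
Each point is 1 of 19938 genes, with the mean log2 difference (vitamin C minus untreated) of days 3 and 4 on the x axis and of days 5 and 6 on the y axis; orange points passed the late test and the dotted line marks equal differences. Dppa5a lies near the line at 3.35 and 3.53, Slc23a1 at 0.40 and 2.61, and no gene passed the test of the change itself.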

How the data were processed

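Total RNA (100 ng per array) was hybridised to 1 Affymetrix array per treatment and day. The values are the authors' deposited log2 expression values, which per the submitters' processing notes came from RMA and Partek. Gene positions are left out, since no label or header names a build for the array. Of 28853 probe sets, 21789 carry 1 gene symbol, 1621 several and 5443 are not listed in the annotation. They name 19938 genes, 999 of them with several probe sets, of which the one with the highest mean over the 8 arrays was used.

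limma 3.58.1 (R 4.3.3) was fitted to all 8 arrays with day as a factor, a vitamin C term for days 3 and 4 and another for days 5 and 6. The test was two-sided and moderated, with Benjamini-Hochberg adjustment over all genes. The spread rests on 2 residual degrees of freedom and 6.43 prior ones. The 4 early arrays enter that spread. Since separate cultures are not stated, the p-values cover the spread among these arrays alone, and it may be technical. Arrays were paired by day because the labels give 1 array of each treatment per day; over genes, the day 6 minus day 5 deviations of both treatments correlated at r = 0.237. Scripts were tested on simulated data. Tables and figures used Python 3.11.15, pandas 2.3.3 and matplotlib 3.10.9.

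The genes and the 33 lists (807 entries, 61 unmatched, 5 matched by a synonym) were chosen with earlier results of these data known. Lists overlap in part (for example Krt8 and Krt18, Ascl2, Slc38a4, Lox and Dnmt3b). Named are the 15 largest rises and falls, list members that passed and up to 4 of each list by p, the 5 smallest p per direction of late minus early, the 5 largest differences of a single day, and a set of pluripotency, methylation, transport and fibroblast genes. Cdh5, Cdx2, Dazl, Dnmt1, Dsc2, Dsp, Klf5, Krt16, Lor, Sall4, Snai1, Snai2, Sprr1b, Sycp3, Tbx3, Tet2, Tet3 and Tie1 were added after their values were seen. Promoter windows are RefSeq's (GRCm38.p6), without those of chromosome 18. Alternatives were other normalizations, filters, probe set rules, variance models and thresholds, the model without day, and each array left out. Counts of a list under an alternative are over all its members. They can take in members that did not pass the main test.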

Additional observations from a re-analysis of the deposited data

Results flagged for a closer look

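For 9 genes both differences of days 3 and 4 lay on one side and both of days 5 and 6 on the other side of a margin of 0.3 around 0. The change between the periods was tested in limma, and none passed. Late minus early was 2.04 for Ifit1, an interferon-induced gene that differed by -1.80 and -1.62 on days 3 and 4 and by 0.33 in the late mean (adjusted p = 0.0754). It was 1.45 for Farp1, 2.03 for Adgrl2, 0.87 for Jak2, 1.37 for Oasl2 and 1.32 for Ero1a, and downward it was -1.56 for Inmt, -1.27 for Vmn1r6 and -1.15 for Ctnnd2. The early mean was -0.77 for Farp1 and -0.70 for Adgrl2, against 0.68 and 1.33 late. Inmt and Vmn1r6 read low on this scale on all arrays.

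Probe sets with no single gene name also carried signal. With all 28853 probe sets in limma, 33 of 7064 that are unlisted or carry several symbols passed (0.467%), all higher with vitamin C, against 235 of 21789 with 1 symbol (1.08%).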

How the results depend on the processing

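Calls of the late effect numbered 451 (352 higher, 99 lower). They were 922 (643, 279) with a trended and robust variance, 95 (89, 6) at a threshold of 0.01 and 788 (554, 234) at 0.1. With the replicate block removed (day left out of the model) they were 216 (179, 37), all among the 451. Leaving out 1 late array, which also drops its pair from the contrast, gave 89 to 235 calls (83 to 200 higher, 6 to 35 lower). The other settings, all on named probe sets, stayed within 1.5 times. Fewer passed in the fit to all 28853 probe sets given above. There, 235 of the 21789 probe sets with 1 symbol passed (201 higher, 34 lower). Late minus early gave 1 call, higher, with the lowest 25% of genes by mean level left out and at a threshold of 0.1, 183 (164 higher, 19 lower) with the trended variance, and 0 to 31 with 1 array left out, 31 of them higher. At 1.5-fold, 784, 904 and 414 genes were higher and 503, 627 and 128 lower on day 5, day 6 and both; at 3-fold, 50, 80 and 33 were higher and 2, 7 and 1 lower. Small differences turned sign: Pou5f1 (0.0138) without day 6, Myc (0.0281) without day 5, Dppa3 (0.0678 with probe sets averaged, 0.243 without day 6), and late minus early of Dppa5a (-0.439) without day 3. The cause was not tested. The number of arrays limits all of these.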

Other observations

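Gene families grouped after their values were seen gave further counts, as a description only. Of 22 kallikrein genes, 7 rose (Klk7, Klk6, Klk8, Klk10, Klk13, Klk11 and Klk1b16), with a family median of 0.32. Of 52 keratin genes, 7 rose (Krt18, Krt7, Krt1, Krt17, Krt8, Krt6b and Krt80) and the median was -0.03, that of all genes. Of 23 claudin genes, 5 rose (Cldn1, Cldn4, Cldn6, Cldn7 and Cldn3), with a median of 0.00. Of 44 collagen chain genes 0 passed in either direction in limma, and the median was -0.17. Related probe sets may read each other's transcripts, which was not tested.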
